A study of Chlamydomonas reinhardtii with 45 samples.

Results

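Of the 13651 transcripts tested in the green alga Chlamydomonas reinhardtii, 46 were high 15 min after NaCl was added and were less than 1 log2 unit above their starting level at 4 h and later. They were chosen by their measured levels. With D the mean of log2(TPM + 1) of a group minus the mean of the untreated libraries at 0 h, each has a D of 1.5 or more at 15 min in NaCl and a D under 1 at 4 h, 6 h and 24 h in NaCl. TPM is a level per transcript length, scaled so that each library sums to 1000000. A transcript was tested when 3 or more of the 45 libraries had it at 1 TPM or above. In all, 110 transcripts had a D of 1.5 or more at NaCl 15 min, and the other 64 had a D of 1 or more at 4, 6 or 24 h. The NaCl values at 15 min, 4 h, 6 h and 24 h made the choice, so they are given below without a test. The levels in mannitol, and the step from 30 to 60 min in NaCl, were not used.

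Osmotic stress draws water out of the cell, and added NaCl brings sodium and chloride ions with it, whereas mannitol is an uncharged sugar alcohol that acts mainly through water loss. Algae answer such stress with signalling, with changes in gene expression and with the making of compatible solutes, of which glycerol is the main one in Chlamydomonas. Transcripts that rise early and briefly after a stress often include regulators, and the AP2 family is a DNA-binding family that in land plants holds many regulators of stress and development.

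Wild-type vegetative haploid cells of strain CC-4533 received 100 mM NaCl or 300 mM mannitol and were sampled at 15, 30 and 60 min and at 4, 6 and 24 h, with 3 libraries in each of these 12 groups. Untreated cultures gave 5 libraries at 0 h (control 0 h) and 4 at 24 h (control 24 h). All groups were grown in acetate medium in continuous low light, and the study's methods have the times of a course taken from 1 flask, with replicates on different days, so that the libraries of 1 course are not separate cultures. P-values below measure the spread between these libraries only, with the variance of each transcript drawn towards a trend over all transcripts tested. A very small p can therefore reflect that trend more than the libraries of the transcript itself. The share of TPM taken by 1 transcript, g15293.t1, ran from 5.33% to 52.3% (median 31.6%), and 13409 to 15520 transcripts were above 0 in a library. The 14 libraries numbered 49 or higher, replicate 3 in the treated groups and replicate 5 in the controls, are called the second library series here. This is a reading of their numbers and not a label.

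The 46 transcripts were mostly low in unstressed cells. Their mean at control 0 h had a median of 3.32 TPM over the 46 (range 0 to 59.4), against a median of 5.48 TPM over all transcripts tested, and 11 of them lay under 1 TPM. At NaCl 15 min their means reached 2.56 to 192 TPM. Of the 46, 12 (26.1%) carry only a g-number identifier, against 24.6% of all transcripts tested. The products of the members are not annotated in the sources used here, with 1 exception. Cre08.g385350.t1.1 encodes a transcription factor with homology to the AP2 family, and its gene is also on the hit list of the study's mutant screen. No member with an identifier that starts with Cre is on the study's list of 33 phosphoproteins. The 12 with a g-number were not matched against the study's lists. Members other than Cre08.g385350.t1.1 are therefore described by identifier, by level and by time course only.

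In NaCl the 46 were at their highest at 15 or 30 min, and most were lower again by 60 min. The median D over the 46 was 1.80 at 15 min, 2.14 at 30 min and 0.75 at 60 min, then 0.42 at 4 h, 0.37 at 6 h and 0.02 at 24 h. The median over all transcripts tested was below 0, with -0.31 at 15 min, -0.63 at 30 min and -0.57 at 60 min. By the rule of the choice, no member could have its highest NaCl level at 4, 6 or 24 h. Of the times left, the highest was 15 min for 17 transcripts, 30 min for 29 and 60 min for none. At 60 min 13 lay below their level at control 0 h, as did 10075 of all 13651 transcripts tested. Under median-ratio scaling, which sets the median transcript equal across libraries, the highest time was 15 min for 9 transcripts, 30 min for 36 and 60 min for 1. With that scaling 7 of the 46 lay below control 0 h at 60 min.

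**Figure D1:**
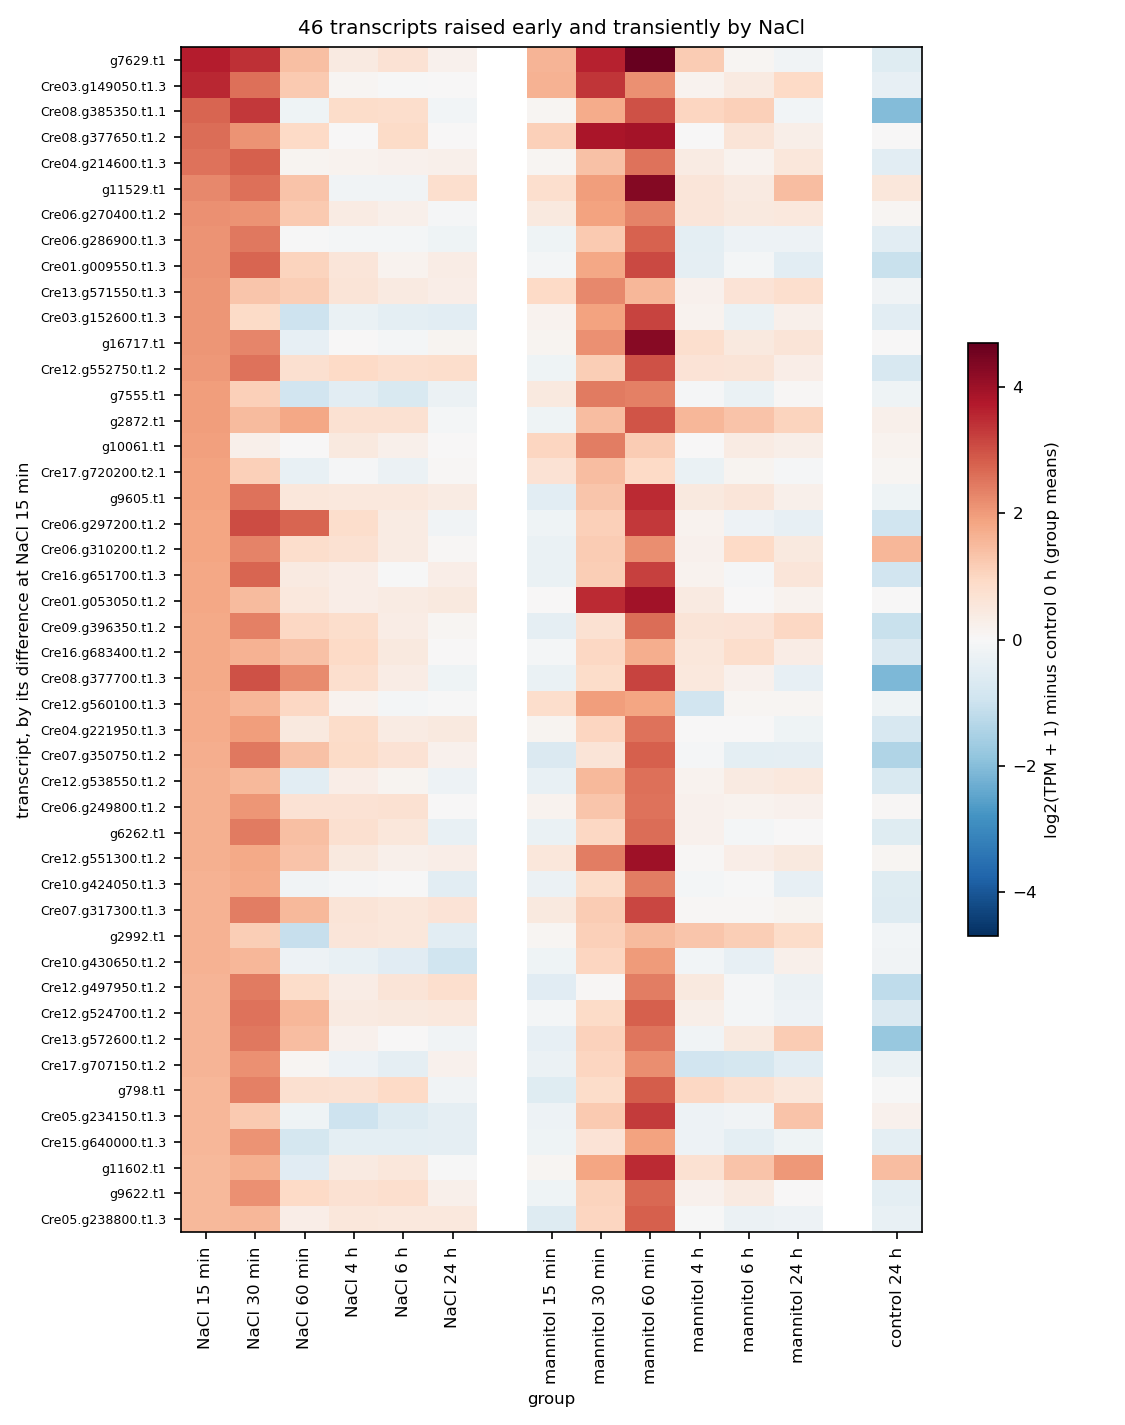
D of the 46 transcripts (rows, ordered by D at NaCl 15 min) in the 6 NaCl groups, the 6 mannitol groups and control 24 h (columns), as the difference of group means of log2(TPM + 1) from control 0 h. Red is above and blue below control 0 h; the red band lies at 15 and 30 min in NaCl and at 30 and 60 min in mannitol, where median D was 1.22 and 2.73.

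In mannitol the same transcripts were highest later, and most reached a higher level. Each osmolyte was used only at the concentration given above, so its kind and its dose cannot be told apart here. At 15 min their median D was -0.11, close to the -0.10 of all transcripts tested. There 25 of the 46 lay below control 0 h, as did 8962 of all 13651. At 30 min the median was 1.22, at 60 min it was 2.73, and at 4 h it was back to 0.18, with 0.16 at 6 h and 0.24 at 24 h. The highest of the 6 times was 60 min for 40 transcripts and 30 min for the other 6, and it was 15 min for none. The choice set no limit on the mannitol times, but in NaCl it asked for a high level at 15 min and lower late levels. The peak times in NaCl and mannitol are therefore not on equal terms, and their difference was not tested. The level at mannitol 60 min was above that at NaCl 30 min, which the choice did not use, for 39 of the 46, and for 36 under median-ratio scaling. These D values share the control 0 h libraries with the choice of the members, so the tests below set mannitol against control 24 h or against another mannitol time.

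**Figure D2:**
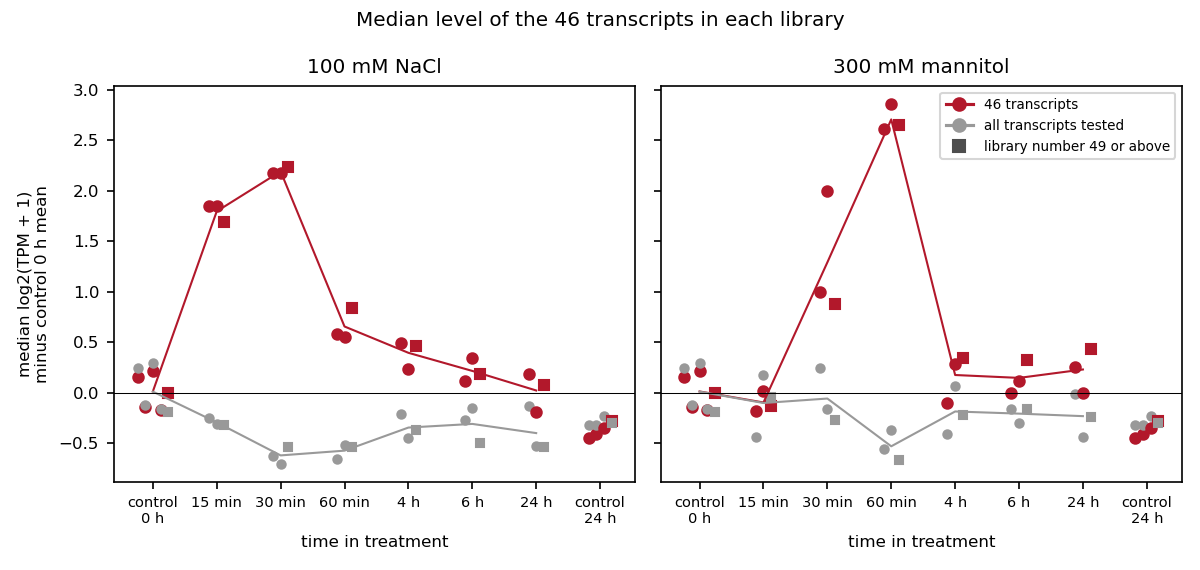
Median over the 46 transcripts (red) and over all 13651 transcripts tested (grey) of log2(TPM + 1) minus the control 0 h mean, 1 point for each library and a line through the group means, for NaCl (left) and mannitol (right); squares are libraries numbered 49 or above. The 3 NaCl libraries at 30 min lie between 2.17 and 2.23, and the 3 mannitol libraries at 60 min between 2.61 and 2.86.

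Mannitol 60 min against control 24 h was the clearest test that did not use the libraries of the choice. Of the 46 transcripts, 43 were called higher, where a call is an adjusted p under 0.01 (limma, Benjamini-Hochberg over all 13651 transcripts) and a log2 difference over 1. The same calls covered 14.7% of all transcripts tested. The median difference was 3.23 over the 46 and -0.24 over all. With any single library left out 43 or 44 were called, and with median-ratio scaling 43. Against control 24 h of the same library series, the median difference over the 46 was 3.37 in the first (2 libraries against 3) and 2.96 in the second, which has 1 library against 1 and so no spread.

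Cre08.g385350.t1.1, the gene with homology to the AP2 family, had its highest levels early. It had 33.6, 35.6 and 48.5 TPM at NaCl 15 min, and 49.8, 49.3 and 87.0 TPM at NaCl 30 min, against 3.42 to 7.88 TPM in the 5 libraries of control 0 h. At NaCl 60 min it had 4.88, 2.81 and 5.59 TPM, within or below the range of control 0 h. The NaCl 30 min libraries all lay above those of 60 min, and the step from 30 to 60 min was a difference of -3.52 (SE 0.27, adjusted p = 3.589e-05 by limma), the steepest of the 46. It was higher again at 4 h and 6 h in NaCl, with 9.345, 8.346 and 12.83 TPM at 4 h and 9.094, 9.649 and 10.09 TPM at 6 h, all above every library of control 0 h. Its D was 0.87 at 4 h and 0.82 at 6 h, after -0.19 at 60 min, and at 24 h it had 5.382, 3.36 and 5.193 TPM, within or just below the range of control 0 h. In mannitol its D was 0.99 at 4 h and 1.13 at 6 h.

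In mannitol the AP2-family gene had 5.02, 5.18 and 6.07 TPM at 15 min, no more than at control 0 h. It then had 14.3, 29.8 and 15.8 TPM at 30 min and 24.4, 58.6 and 70.8 TPM at 60 min, against 0 to 1.04 TPM in the 4 libraries of control 24 h. All mannitol 60 min libraries lay far above control 24 h, and the difference was 5.03 (SE 0.36, adjusted p = 1.912e-07 by limma). Untreated cells had less of it at 24 h, with a D of -2.05. It was also called higher than control 24 h at mannitol 15 min, by 2.14 (SE 0.28, adjusted p = 0.000816 by limma), although it differed from control 0 h by 0.09 there.

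g7629.t1 had the largest rise of the 46 at NaCl 15 min. It had 16.7, 20.8 and 17.6 TPM there, against 0 to 1.52 TPM at control 0 h, a D of 3.68. In mannitol it also had the highest D at 60 min (4.68), with 21.5, 37.4 and 64.4 TPM, and it was listed at 0 in all 4 libraries of control 24 h. That difference was 5.26 on the log2(TPM + 1) scale (SE 0.33, adjusted p = 5.008e-08 by limma). At mannitol 4 h it had 1.13, 1.38 and 7.003 TPM, lower than at mannitol 60 min by a difference of -3.48 (SE 0.40, adjusted p = 6.624e-16 by limma). In NaCl it had left its peak by 60 min, where it had 2.18, 3.56 and 3.39 TPM, against 9.85, 11.9 and 29.1 TPM at NaCl 30 min. This step was a difference of -2.02 (SE 0.34, adjusted p = 0.001623 by limma), and without the NaCl 60 min replicate 1 its adjusted p was 0.01376.

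The most abundant members followed the same course from a higher base. Cre07.g350750.t1.2 averaged 192 ± 10.2 TPM at NaCl 15 min (SD, n = 3), against 59.4 ± 11.4 TPM at control 0 h (SD, n = 5). At mannitol 60 min it had 408, 339 and 520 TPM, the highest level of any member in any group, against 16.8 to 27.7 TPM at control 24 h. The groups were far apart, with a difference of 4.22 (SE 0.25, adjusted p = 3.043e-08 by limma). The D of Cre07.g350750.t1.2 was 2.81 at mannitol 60 min and -1.41 at control 24 h.

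Cre12.g552750.t1.2 had 134, 137 and 92.6 TPM at NaCl 15 min, against 19.1 to 46.4 TPM at control 0 h. It had 263, 270 and 178 TPM at mannitol 60 min, against 12.2 to 18.97 TPM at control 24 h, a difference of 3.76 (SE 0.25, adjusted p = 7.89e-08 by limma). Its late D in NaCl was near the limit of 1, with 0.93 at 4 h and 0.82 at 24 h. Cre08.g377700.t1.3 had 73.3, 78.9 and 71.0 TPM at NaCl 15 min, against 16.9 to 30.2 TPM at control 0 h, and 192, 171 and 157 TPM at NaCl 30 min. Cre12.g524700.t1.2 had 67.7, 71.7 and 57.2 TPM at NaCl 15 min, against 15.3 to 28.8 TPM at control 0 h.

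**Figure D3:**
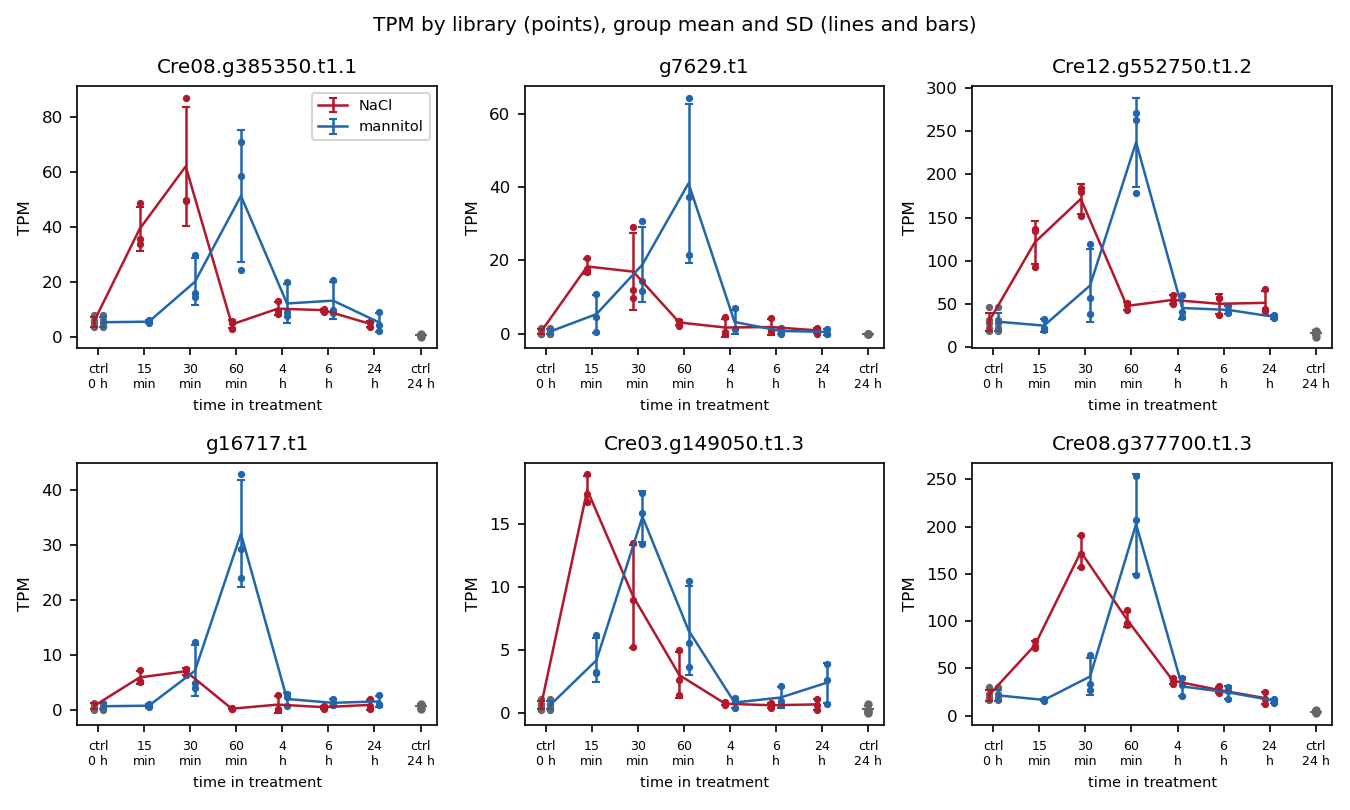
TPM of 6 of the 46 transcripts by time in NaCl (red) and mannitol (blue), with each library as a point, the group means joined by lines and bars of 1 SD; control 0 h stands at the left and control 24 h at the right in grey. The NaCl curves top out at 15 or 30 min and the mannitol curves at 60 min, except Cre03.g149050.t1.3, whose 3 mannitol libraries at 30 min (13.4 to 17.4 TPM) lie above those at 60 min (3.66 to 10.4 TPM).

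At mannitol 60 min against control 24 h, members low at rest lay on both sides of the median difference of 3.23 over the 46. g11529.t1 had 61.3, 48.97 and 106 TPM at mannitol 60 min, against 1.34, 3.62, 2.32 and 16.6 TPM at control 24 h, a difference of 3.79 (SE 0.60, adjusted p = 0.0005718 by limma). Its highest libraries, in mannitol and in the control, were both of the second series, and all mannitol libraries lay above all control libraries. Cre01.g009550.t1.3 had 51.7, 32.7 and 20.2 TPM at mannitol 60 min, against 0.676 to 1.23 TPM at control 24 h, a difference of 4.15 (SE 0.31, adjusted p = 2.312e-07 by limma). Its D was 3.10 at mannitol 60 min and -1.05 at control 24 h.

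Cre12.g551300.t1.2 had 12.9, 20.5 and 17.8 TPM at mannitol 60 min, against 0 to 0.575 TPM at control 24 h, a difference of 3.89 (SE 0.28, adjusted p = 1.624e-07 by limma). Cre04.g214600.t1.3 had 9.43, 9.05 and 8.94 TPM, against 0 to 0.395 TPM, a difference of 3.05 (SE 0.25, adjusted p = 5.034e-07 by limma). Cre06.g270400.t1.2 had 4.29, 4.62 and 5.66 TPM, against 0.164 to 0.391 TPM, a difference of 2.23 (SE 0.24, adjusted p = 4.394e-06 by limma). The groups did not overlap for any of the 3. g2872.t1 was still high at NaCl 60 min, with 34.8, 31.2 and 64.1 TPM, against 5.76 to 20.1 TPM at control 0 h.

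Not every member waited until 60 min in mannitol. Mannitol 30 min against control 24 h already called 34 of the 46 higher (limma), against 3.78% of all transcripts tested, and the median difference was 1.79 over the 46 and 0.25 over all. How many were called depended on the processing and on single libraries. Median-ratio scaling gave 13, control 0 h as the reference gave 17 (0.711% of all transcripts), and leaving out 1 library gave 17 (without mannitol 30 min replicate 1) to 40 (without control 24 h replicate 5), with 21 without mannitol 30 min replicate 2. The 3 libraries of mannitol 30 min were uneven, since replicate 2 had a median over the 46 of 2.00 above control 0 h, against 1.00 and 0.88 in replicates 1 and 3.

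At mannitol 15 min only 3 of the 46 were called higher than control 24 h (limma), against 0.491% of all transcripts tested, and 19 had an unadjusted p under 0.05, against 12.6% of all. They were Cre08.g385350.t1.1, Cre08.g377700.t1.3 and Cre03.g149050.t1.3, and without mannitol 15 min replicate 1 none was called, without replicate 2 only 1, and with median-ratio scaling none. Cre08.g377700.t1.3 had 16.2, 17.7 and 15.7 TPM at mannitol 15 min, against 2.82 to 6.26 TPM at control 24 h, a difference of 1.80 (SE 0.29, adjusted p = 0.004705 by limma). Its difference from control 0 h was -0.32.

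Cre03.g149050.t1.3 had the highest D of the 46 at mannitol 15 min, 1.64. It had 16.7, 17.4 and 18.9 TPM at NaCl 15 min, against 0.248 to 1.09 TPM at control 0 h. At mannitol 15 min it had 6.16, 3.14 and 3.19 TPM, above every library of both controls, and its difference from control 24 h was 2.01 (SE 0.28, adjusted p = 0.001248 by limma). Its adjusted p was 0.03622 with median-ratio scaling, 0.01726 without mannitol 15 min replicate 1 and 0.02609 without replicate 2. It peaked at mannitol 30 min, where it had 15.9, 17.4 and 13.4 TPM, and at mannitol 60 min it was lower, by a difference of -1.23 (SE 0.39, adjusted p = 0.007266 by limma). This call was lost under median-ratio scaling (adjusted p = 0.1165) and without any single library of the comparison other than mannitol 60 min replicate 2 (adjusted p = 0.01014 to 0.1031).

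g7629.t1, Cre08.g377650.t1.2, g10061.t1 and Cre13.g571550.t1.3 made up the rest of the 5 highest at mannitol 15 min, with D of 1.61, 1.13, 1.02 and 0.92. The libraries of g7629.t1 were far apart there, with 10.8, 0.436 and 4.67 TPM. g10061.t1 had 3.81, 2.63 and 2.101 TPM at NaCl 15 min, was listed at 0 in all 5 libraries of control 0 h, and had 0, 0 and 0.680 TPM at NaCl 30 min. In mannitol it had 4.31, 4.45 and 4.19 TPM at 30 min and 0, 1.298 and 4.02 TPM at 60 min, which differed from 30 min by -1.24 (SE 0.39, adjusted p = 0.006674 by limma). This call was lost under median-ratio scaling (adjusted p = 0.2439) and without any single library of the comparison other than mannitol 60 min replicate 3 (adjusted p = 0.01754 to 0.2807). The number of reads behind such low levels is unknown.

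From 15 to 30 min in mannitol all 46 differences were positive, with a median of 1.37, against 0.03 over all transcripts tested. Only 11 were called higher (limma), against 0.396% of all, 44 had an unadjusted p under 0.05, against 4.65% of all, with median-ratio scaling none was called, and without mannitol 30 min replicate 2, mannitol 15 min replicate 2 or mannitol 15 min replicate 3 the count was 2, 3 and 4. Cre01.g053050.t1.2 made the largest step. It was listed at 0 in all 3 libraries of mannitol 15 min and in both controls, and had 6.26, 14.6 and 12.4 TPM at mannitol 30 min. The step was a difference of 3.52 (SE 0.39, adjusted p = 6.574e-16 by limma), and under median-ratio scaling its adjusted p was 0.09832.

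From 30 to 60 min in mannitol 29 of the 46 were called higher (limma), against 6.52% of all transcripts, and 2 lower, against 18.7%. The median difference was 1.46 over the 46, while the median of all transcripts was -0.47. The 2 that were lower were Cre03.g149050.t1.3 and g10061.t1, described above, and with median-ratio scaling 31 were higher and none lower. The number called in either direction was 8 without mannitol 30 min replicate 1 and 35 without replicate 2. Cre08.g377700.t1.3 had the largest difference of the 46 from control 24 h at mannitol 60 min, with 253, 207 and 148 TPM at mannitol 60 min, against 2.82 to 6.26 TPM at control 24 h, a difference of 5.31 (SE 0.28, adjusted p = 1.545e-08 by limma). It also had the lowest D of the 46 at control 24 h, -2.13, and its D at mannitol 60 min was 3.18.

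Of the 3 members not called at mannitol 60 min against control 24 h, Cre17.g720200.t2.1 and g10061.t1 also had the lowest D at mannitol 60 min, 0.95 and 1.18 above control 0 h. Cre17.g720200.t2.1 had 1.90, 2.82 and 0.793 TPM there, against 0 to 0.874 TPM at control 24 h, a difference of 0.85 (SE 0.30, adjusted p = 0.02994 by limma). g10061.t1 differed by 0.99 (SE 0.44, adjusted p = 0.07816 by limma). The third, Cre06.g310200.t1.2, had a D of 2.19 at mannitol 60 min, and control 24 h held more of it than control 0 h, where it had 21.4 to 41.7 TPM. It had 63.5, 189 and 237 TPM at mannitol 60 min, against 66.8, 62.6, 76.8 and 217 TPM at control 24 h, so that the groups overlapped and differed by 0.63 (SE 0.52, adjusted p = 0.3336 by limma). The highest control 24 h library and the highest mannitol library were of the second series.

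After 60 min the members fell in mannitol too. At mannitol 4 h 45 of the 46 were called lower than at mannitol 60 min (limma), against 9.64% of all transcripts tested, with a median difference of -2.52 over the 46 and 0.31 over all. With single libraries left out 38 to 44 were called. The exception was g2992.t1, which had 12.7, 21.2 and 14.7 TPM at mannitol 4 h, against 12.9, 22.3 and 20.2 TPM at mannitol 60 min, a difference of -0.17 (SE 0.39, adjusted p = 0.744 by limma). In NaCl the same transcript had 1.89, 2.80 and 2.00 TPM at NaCl 60 min, against 11.9, 13.6 and 17.7 TPM at NaCl 30 min.

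Few members were called higher than control 24 h at the late mannitol times, of which only mannitol 24 h matches that control in time. Mannitol 4 h called 6 of the 46 higher than control 24 h (limma), against 2.66% of all transcripts tested, mannitol 6 h called 5, against 2.2%, and mannitol 24 h called 3, against 0.908%. An unadjusted p under 0.05, in either direction, was reached by 28 of the 46 at 4 h, 24 at 6 h and 21 at 24 h, against 23.4%, 26.1% and 17.6% of all transcripts tested. Cre08.g377700.t1.3 and Cre13.g572600.t1.2 were called at all 3 times, Cre08.g385350.t1.1 and Cre12.g552750.t1.2 at 4 and 6 h, Cre09.g396350.t1.2 at 4 and 24 h, g2992.t1 at 4 h and Cre16.g683400.t1.2 at 6 h. Cre13.g572600.t1.2 and Cre09.g396350.t1.2 are named here after their values were seen. Single libraries moved these counts. Leaving out replicate 5 of control 24 h gave 10 at 4 h, 8 at 6 h and 6 at 24 h. Leaving out its replicate 2 or 3 gave 3, 3 and 1, and leaving out its replicate 4 gave 3 at 4 h and at 6 h. Of the mannitol libraries, 4 h replicate 2 left 3, 6 h replicates 1, 2 and 3 left 3, 2 and 3, and 24 h replicates 1 and 2 left 1 each. The AP2-family gene had 9.82, 8.75 and 20.7 TPM at mannitol 6 h, against 0 to 1.04 TPM at control 24 h, a difference of 3.18 (SE 0.34, adjusted p = 0.0006508 by limma). Against control 0 h none of the 46 was called higher at 4 or 6 h and 1 at 24 h, where 0.762%, 0.542% and 0.491% of all transcripts were called higher, shares near those of the members. In untreated cells 33 of the 46 had a D below 0 at control 24 h, as had 11603 of all 13651 transcripts tested. The median D there was -0.41 over the 46 and -0.30 over all.

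The return in NaCl was under way by 60 min. The choice asked for a D under 1 at 4 h in NaCl, so the time of return is not on equal terms with mannitol. At NaCl 60 min 32 of the 46 were called lower than at NaCl 30 min (limma), against 7.63% of all transcripts tested, with a median difference of -1.45 over the 46 and -0.05 over all. With single libraries left out 24 to 35 were called. The cultures sampled at 30 and 60 min may be those sampled at 15 min, which made the choice. Cre12.g552750.t1.2 had 43.05, 48.5 and 51.5 TPM at NaCl 60 min, against 184, 179 and 152 TPM at NaCl 30 min, a difference of -1.83 (SE 0.18, adjusted p = 0.0001062 by limma). Some lay below their level at control 0 h, as did 10075 of all 13651 transcripts tested. Cre03.g152600.t1.3 had 0.0968, 0 and 0 TPM at NaCl 60 min, against 0.144 to 2.72 TPM at control 0 h, and g7555.t1 had 0.167, 0.680 and 0.973 TPM, against 1.36 to 2.53 TPM. At the other end Cre08.g377700.t1.3 kept 96.1, 97.9 and 111 TPM at NaCl 60 min, a D of 2.23.

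Set side by side at 30 min, the osmolytes had the members at unequal stages. At NaCl 30 min 20 of the 46 were called higher than at mannitol 30 min (limma), against 4.19% of all transcripts tested, and 4 lower, against 21.5%. The median difference was 0.85 over the 46 and -0.58 over all, and with median-ratio scaling 21 were higher and 1 lower. Without mannitol 30 min replicate 1 none was called higher and 1 lower, and without mannitol 30 min replicate 3 the count in either direction was 12.

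Cre08.g377700.t1.3 had 192, 171 and 157 TPM at NaCl 30 min, against 33.7, 63.6 and 26.6 TPM at mannitol 30 min, a difference of 2.13 (SE 0.31, adjusted p = 1.03e-09 by limma). Cre07.g350750.t1.2 had 311, 306 and 386 TPM, against 68.5, 149 and 71.1 TPM in mannitol, a difference of 1.88 (SE 0.32, adjusted p = 2.067e-07 by limma). The AP2-family gene Cre08.g385350.t1.1 was higher by 1.61 (SE 0.31, adjusted p = 5.973e-06 by limma). For all 3 the NaCl libraries lay above the mannitol libraries. Without mannitol 30 min replicate 1 none of the 3 was called. The adjusted p by limma was then 0.01131 for Cre08.g377700.t1.3 and 0.02788 for the AP2-family gene.

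The 4 members lower in NaCl at 30 min were Cre08.g377650.t1.2, Cre01.g053050.t1.2, g10061.t1 and g7555.t1. Cre08.g377650.t1.2 had 2.01, 2.25 and 7.56 TPM at NaCl 30 min, against 12.1, 15.4 and 12.7 TPM at mannitol 30 min, a difference of -1.71 (SE 0.34, adjusted p = 1.108e-05 by limma). Cre01.g053050.t1.2 had 0.412, 1.73 and 4.65 TPM, against 6.26, 14.6 and 12.4 TPM, a difference of -2.04 (SE 0.35, adjusted p = 2.355e-07 by limma). g10061.t1 differed by -2.16 (SE 0.33, adjusted p = 7.755e-09 by limma) and g7555.t1 by -1.33 (SE 0.33, adjusted p = 0.0005891 by limma). Under median-ratio scaling the calls of Cre08.g377650.t1.2, Cre01.g053050.t1.2 and g7555.t1 were lost, with adjusted p of 0.04792, 0.05355 and 0.1193. Without mannitol 30 min replicate 1 only 1 of the 46 was called lower.

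At 60 min the order had turned, with the same limit from a choice made in NaCl. At NaCl 60 min 37 of the 46 were called lower than at mannitol 60 min (limma), against 14.7% of all transcripts tested, and none was called higher. The median difference was -2.09 over the 46 and -0.13 over all, all 46 differences were negative, and 32 to 37 were called with single libraries left out. g16717.t1 differed most, with 0.2999, 0.326 and 0.195 TPM at NaCl 60 min, against 24.0, 29.3 and 42.9 TPM at mannitol 60 min, a difference of -4.66 (SE 0.30, adjusted p = 3.868e-09 by limma). Cre03.g152600.t1.3 had 0.0968, 0 and 0 TPM, against 12.4, 23.9 and 17.8 TPM, a difference of -4.16 (SE 0.31, adjusted p = 1.939e-08 by limma). The AP2-family gene Cre08.g385350.t1.1 was lower in NaCl by a difference of -3.17 (SE 0.36, adjusted p = 2.347e-06 by limma).

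Of the 9 members not called at 60 min, Cre16.g683400.t1.2 and Cre13.g571550.t1.3 were closest between the osmolytes. Cre16.g683400.t1.2 had 24.6, 29.1 and 27.7 TPM at NaCl 60 min, against 25.2, 42.9 and 36.5 TPM at mannitol 60 min, a difference of -0.32 (SE 0.28, adjusted p = 0.3801 by limma). Cre13.g571550.t1.3 had 2.45, 0.750 and 2.09 TPM, against 1.73, 2.54 and 3.61 TPM, a difference of -0.42 (SE 0.33, adjusted p = 0.3473 by limma). A p of this size does not show that the osmolytes acted alike on these members.

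**Figure D4:**
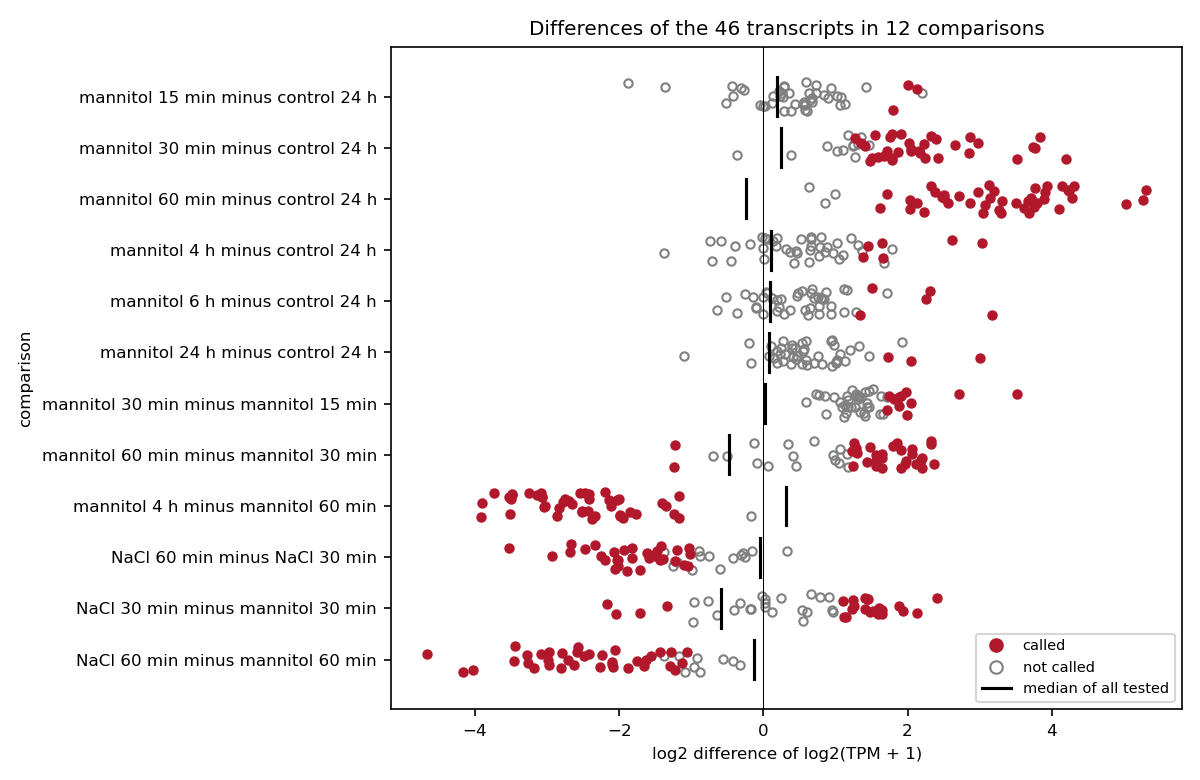
Log2 differences of the 46 transcripts (points, spread vertically at random within a row) in the 12 comparisons, given as the first group minus the second; filled red points were called, open points were not, and the black bar is the median of all 13651 transcripts tested. The members lie to the right at mannitol 60 min against control 24 h (43 called) and to the left at mannitol 4 h against 60 min (45 called) and at NaCl against mannitol at 60 min (37 called).

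The 64 transcripts that were raised at NaCl 15 min but did not meet the late condition had a similar course in mannitol up to 60 min. Their median D was -0.16 at mannitol 15 min, 1.32 at 30 min and 3.51 at 60 min, beside -0.11, 1.22 and 2.73 for the 46. At mannitol 4 h it was 0.80, beside 0.18 for the 46. A D of 1 or more at mannitol 4, 6 or 24 h was found in 8 of the 46, which had been selected on NaCl alone. By time it was found in 3, 4 and 5 of the 46 at 4, 6 and 24 h. The 64 had 25, 23 and 17 such transcripts, and the shares of all transcripts tested were 1.60%, 1.42% and 1.16%. These are descriptions, since both sets were chosen by the same values, and the difference between the sets was not tested.

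Levels ran on without a gap across the limit of the choice. Just inside it lay g11602.t1, g9622.t1 and Cre05.g238800.t1.3, with D at NaCl 15 min of 1.52, 1.52 and 1.51, and just outside it lay g5038.t1, Cre05.g247700.t1.3 and Cre14.g610100.t1.3, with 1.49, 1.49 and 1.48. g5038.t1 and Cre14.g610100.t1.3 also had a D above 2 at mannitol 60 min (2.98 and 2.08), and Cre05.g247700.t1.3 had 1.19. Under median-ratio scaling 58 transcripts met the rule, of which 28 are among the 46. The 18 that dropped out did so because a late NaCl value passed 1, none because of the rise at 15 min, where all 46 still had a D of 1.66 or more.

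Some members lie beside other genes that responded. Of the 46, 31 have an entry in the RefSeq gene table for assembly v5.5 of the genome, from which only gene order was used. Cre08.g377650 and Cre08.g377700 are next to each other, and both are members. Their levels differed at rest. Cre08.g377650.t1.2 had 12.1, 15.4 and 12.7 TPM at mannitol 30 min and was listed at 0 in all 9 untreated libraries, and Cre08.g377700.t1.3 had 33.7, 63.6 and 26.6 TPM there, beside 16.9 to 30.2 TPM at control 0 h. At mannitol 60 min Cre08.g377650.t1.2 had 6.33, 19.7 and 21.3 TPM, all above the 0 TPM of control 24 h, a difference of 3.91 (SE 0.35, adjusted p = 1.159e-06 by limma).

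Cre01.g053050, the gene of the member that stepped up most between 15 and 30 min in mannitol, lies next to Cre01.g053000, which encodes a glycerol 3-phosphate dehydrogenase of glycerol synthesis and is not a member. Cre01.g053000.t1.2 had a D of 5.88 at NaCl 15 min, 5.34 at mannitol 30 min and 8.31 at mannitol 60 min, beside 1.81, 3.52 and 3.93 for Cre01.g053050.t1.2. Another member, Cre06.g286900.t1.3, lies next to Cre06.g286850, whose transcript had a D of 2.25 at NaCl 15 min and just missed the late condition, with a highest late D of 1.07. Among the 42 tested neighbours that are not members, 10 (23.8%) had a D of 1 or more at mannitol 60 min, against 10.3% of all transcripts tested. Whether reads were counted by strand is not given in the sources used here, so overlap between neighbouring genes was not tested.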

How the data were processed

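Each of the 45 samples gave 1 mRNA library. Per the paper's methods and the labels, the authors aligned the reads with BWA, used DESeq2 for their own comparisons, and deposited 1 table of TPM with 1 column for each library, replicates not pooled. How TPM were calculated is not given in the sources used here, and since each library sums to 1000000 the number of reads, and with it the counting error, is unknown. The precision given is the spread between libraries, moderated across transcripts where it comes from limma. One line without a name or values was left out.

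The test was limma 3.58.1 (R 4.3.3), with a moderated variance that followed a mean trend and was robust to outliers, on log2(TPM + 1) of the authors' deposited table. Each fit held only the 2 groups compared and the 13651 transcripts that reached 1 TPM in 3 or more libraries. P-values were two-sided and adjusted by Benjamini-Hochberg over all of them, and a call needs an adjusted p under 0.01 and a log2 difference over 1. Differences on this scale understate the change of low transcripts. The fit was tested on simulated data. Tables were made with Python 3.11.15 and plots with matplotlib 3.10.9.

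Named transcripts were the 15 with the largest D at NaCl 15 min, the 3 on each side of the limit of 1.5, the 5 highest and lowest at mannitol 60 min, the 5 highest at mannitol 15 and 30 min, the 5 most abundant at NaCl 15 min and those on the study's lists. The members and lists were chosen with earlier results of these data known. Same-numbered libraries of NaCl 60 min and NaCl 30 min deviated together (r of 0.15, 0.17 and 0.38 over transcripts). For replicate 1 another NaCl 30 min library had a higher r. The printed values come from fits without pairs, also for this comparison, and a block for the replicate number was run as an alternative. In each other comparison the lowest r was smaller, at most 0.09. Sequences and promoter motifs were not analysed here. The alternatives were another pseudocount, filter, scaling, threshold, reference or fit, blocks for the replicate number and the library series, and leaving out each library.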

Additional observations from a re-analysis of the deposited data

Results flagged for a closer look

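NaCl and mannitol differed directly in 24 of the 46 transcripts at 30 min (20 higher and 4 lower in NaCl) and in 37 at 60 min (all lower in NaCl), by limma. Of all transcripts tested, 4.19% were called higher and 21.5% lower in NaCl at 30 min, and 14.7% lower at 60 min. Without mannitol 30 min replicate 1 only 1 of the 46 was called at 30 min. The members were chosen by NaCl levels, so the osmolytes were not on equal terms. In 6 of 50 sets of untreated libraries checked for the named members, the highest or lowest library stood apart by Dixon's ratio, which picks out about 1 set in 20 by chance. At control 24 h these were Cre06.g310200.t1.2, with 217.2 TPM in 1 library and 62.6 to 76.8 TPM in the others, Cre12.g524700.t1.2, with 8.736 TPM against 13.9 to 14.8 TPM, and Cre06.g286900.t1.3, with 1.059 TPM against 1.83 to 1.96 TPM. Also at control 24 h, Cre13.g571550.t1.3 had 0.3618 TPM and g10061.t1 had 0.6588 TPM in 1 library and were listed at 0 in the others. At control 0 h Cre12.g551300.t1.2 had 0.8773 TPM in 1 library and was listed at 0 in the others. Where all libraries but 1 are listed at 0, Dixon's ratio is always 1. The rate of 1 set in 20 does not hold for such sets. The causes were not tested.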

How the results depend on the processing

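The counts at mannitol 60 min against control 24 h (43), mannitol 4 h against 60 min (45) and NaCl against mannitol at 60 min (37) stayed within 1.5 times under every alternative run, and of 606 refits of single members 524 kept their direction and call, 76 lost a call, 4 gained one and 2 turned round. Those 2 were Cre08.g377700.t1.3 at mannitol 15 min (-0.3226 with control 0 h as reference) and g2992.t1 at mannitol 4 h against 60 min (0.1017 without g15293.t1 and g15294.t1). Where a count moved the cause was not tested. Depth is unknown, and low members can be set by a few reads.

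The 46 members became 121 with a pseudocount of 0.1 (34 of the 46 among them), 13 with D of 2 or more, 85 with a lower limit for D, and 41 to 58 with single libraries left out. Without g15293.t1 and g15294.t1 44 met the rule, 29 of them members. The first library series only, added after seeing the data, gave 49, of which 41 are members.

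Against control 24 h, mannitol 15 min (3 called) gave 0 with a pseudocount of 0.1, with median-ratio scaling and with a replicate block, 1 without g15293.t1 and g15294.t1, without trend and robust and with control 0 h as reference, 6 at an adjusted p under 0.05, with a library series block and in the first series, and 0 to 4 with single libraries left out. Mannitol 30 min (34) gave 13 with median-ratio scaling, 20 without g15293.t1 and g15294.t1, 19 at a difference over 2, 17 with control 0 h and 17 to 40 with single libraries left out. With single libraries left out mannitol 60 min gave 43 to 44.

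Mannitol 4 h (6) gave 16 without g15293.t1 and g15294.t1, 2 at a difference over 2, 13 at an adjusted p under 0.05, 2 with a replicate block, 14 with a series block, 3 without trend and robust, 0 with control 0 h, 12 in the first series and 3 to 10 with single libraries left out. Mannitol 6 h (5) gave 9, 3, 8, 0 and 9 under the first 5 of these, 8 in a joint fit over all groups, 0 with control 0 h, 9 in the first series and 2 to 8 with single libraries left out. Mannitol 24 h (3) gave 7 without g15293.t1 and g15294.t1, 7 at an adjusted p under 0.05, 8 in a joint fit, 0 with a replicate block, 10 with a series block, 1 without trend and robust, 1 with control 0 h, 11 in the first series and 1 to 6 with single libraries left out.

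Mannitol 30 against 15 min (11) gave 4 with no filter, 4 with a mean TPM of 5 or more, 0 with median-ratio scaling, 1 without g15293.t1 and g15294.t1, 3 at a difference over 2, 20 at an adjusted p under 0.05, 21 in a joint fit, 4 with a replicate block, 2 without trend and robust, 3 in the first series and 2 to 13 with single libraries left out. Mannitol 60 against 30 min (31 in either direction) gave 9 at a difference over 2, 19 without trend and robust and 8 to 35 with single libraries left out. Mannitol 4 h against 60 min gave 38 to 44 so. NaCl 60 against 30 min (32) gave 13 at a difference over 2 and 24 to 35 so. NaCl against mannitol gave, at 30 min (24), 4 at a difference over 2, 13 without trend and robust and 1 to 27 so, and at 60 min 32 to 37. A replicate block gave 45 at mannitol 60 min and 24 at mannitol 30 min. Against control 24 h this block joins libraries by number only. Replicate 3 of control 24 h is of the first library series and replicate 3 of mannitol of the second. The block counts against control 24 h, here and above, are therefore not from matched cultures. With this block mannitol 60 against 30 min gave 32, and mannitol 4 h against 60 min gave 44. NaCl 60 against 30 min, where same-numbered libraries deviated together, gave 35 with it. NaCl against mannitol gave 24 and 40 with it at 30 and 60 min.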
